A study of Mus musculus with 8 samples.

Results

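The 7 MHC class II genes examined here were Cd74, H2-Aa, H2-Ab1, H2-Eb1, H2-DMa, H2-DMb1 and Ciita, taken by symbol from the 49315 genes counted in gastrocnemius, the large calf muscle, of C57BL/6 mice. The muscle was taken at 3, 12, 24 or 30 months of age. Each age had 2 libraries, 8 in all, made with a NEBNext Ultra kit from Trizol-extracted total RNA of flash-frozen muscle. No treatment or genotype beyond the strain is given, so the comparison is of age, from young adult to old mice. Nothing in the labels ties the 2 libraries of an age to different animals. The p-values below therefore rest on the spread between libraries alone, and that spread may be technical.

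MHC class II molecules are pairs of an alpha and a beta chain that carry peptides of engulfed proteins to the surface of antigen-presenting cells, where helper T cells read them. The invariant chain, encoded by Cd74, holds the groove closed on the way through the cell. H2-DM, a dimer of the H2-DMa and H2-DMb1 products, then exchanges the last invariant chain fragment for a peptide. Ciita encodes the transactivator that switches the whole group on, and it is recruited to short conserved promoter elements named the X and Y boxes. In skeletal muscle the group is known from macrophages and dendritic cells that lie between the fibres.

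The promoter elements that this group is known to share are shown for a pair of its genes, because the complex that recruits the Ciita protein is known to bind them. Promoter windows ran from 250 bases before to 50 bases after the RefSeq start, on GRCm38.p6, and both strands were searched for ACNGATG, the core of the X box, and GATTGG, the core of the Y box. Windows were matched for H2-Aa, H2-Eb1, H2-DMa and H2-DMb1, and not for H2-Ab1, Cd74 and Ciita. Capitals mark matches on the strand of the gene, and each stretch reads 5′ to 3′ on the strand of its gene, H2-Eb1 at chr17:34305727-34305856 (plus) and H2-Aa at chr17:34287834-34287963 (minus), just upstream of the gene.
H2-Eb1: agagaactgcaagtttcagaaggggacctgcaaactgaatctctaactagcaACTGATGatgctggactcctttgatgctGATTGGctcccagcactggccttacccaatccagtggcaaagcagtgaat
H2-Aa: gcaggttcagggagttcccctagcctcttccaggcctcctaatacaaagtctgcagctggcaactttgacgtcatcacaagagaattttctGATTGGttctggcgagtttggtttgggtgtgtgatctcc
In H2-Eb1 the X match began at -88 and the Y match at -60 from the RefSeq start, with 21 bases between them, and 1 more match to the Y letters lay on the other strand, not in capitals. H2-DMb1 had the same arrangement at -91 and -62, with 22 bases between, although its RefSeq start lies 119 bases inside the gene as the files give it. The H2-Aa window held the Y match alone on its own strand, at -49, and 1 match to the X letters on the other strand. An X match followed by a Y match on the same strand, 10 to 30 bases further on, was found in 20 of 32851 windows (0.0609%), whereas the X letters alone were in 9.85% and the Y letters alone in 16.1%. H2-DMb2 and H2-Eb2, close relatives of members, were also among the 20. The RefSeq starts behind the windows of H2-DMa lie 9664 and 12350 bases from its start in the files, and these windows were not read further. These matches are descriptions of letters.

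The 5 chain and H2-DM genes lie together on chromosome 17 of GRCm38, the build of the files. H2-DMa (ENSMUSG00000037649) spans positions 34135182 to 34139101 on the plus strand, H2-DMb1 (ENSMUSG00000079547) 34153072 to 34160230 on the plus strand, and H2-Ab1 (ENSMUSG00000073421) 34263209 to 34269418 on the plus strand. H2-Aa (ENSMUSG00000036594) spans 34282744 to 34287827 on the minus strand and H2-Eb1 (ENSMUSG00000060586) 34305877 to 34316199 on the plus strand. Cd74 (ENSMUSG00000024610) is on chromosome 18 at 60803848 to 60812646, and Ciita (ENSMUSG00000022504) on chromosome 16 at 10488178 to 10527564, both on the plus strand. Ciita overlaps Dexi, a gene of the opposite strand that had 7636 counts over the 8 libraries against 1497 for Ciita, so reads in the overlap could be shared if strand was not used in counting. H2-DMb1 has a close paralog, H2-DMb2, and their counts are uncertain for the same kind of reason.

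The libraries held 42404254 to 59245029 counts each. Levels are in CPM, the usual depth-scaled count, here further scaled by TMM, edgeR's correction for composition. At 0 counts the highest level still allowed was 0.0506 to 0.0707 CPM per library, counting error only. All 7 members were well above it and all passed the filter on low counts, among 19571 genes tested. The libraries also differed in kidney transcripts: 9 kidney genes summed to between 4.18 and 55.7 CPM in 5 libraries and to between 0.574 and 0.696 CPM in 3. The 5 were the 3 month pair, the first replicates of 12 and 24 months and the second replicate of 30 months. Among them the sum was 55.7 and 15.8 CPM at 3 months and 4.18 to 5.69 CPM later, so kidney transcripts also went with age: for 30 against 3 months their median log2 difference was -4.06, with 7 of 9 at an unadjusted p below 0.05 in edgeR. A term for the set treats these 5 libraries as alike. Fast muscle genes marked the tissue in every library, and Myh4, the IIb myosin heavy chain, was at 30841 to 78985 CPM. The sum of 8 muscle genes was lowest in replicate 2 of 30 months, at 84038 CPM, and highest in replicate 2 of 24 months, at 177262 CPM. Because these libraries stand apart, each class II result is given without and with the library set (kidney transcripts present or not) as a term in the model.

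The class II genes were at their highest at 30 months. All 7 had both 30 month libraries above both libraries of 3 months and both of 12 months, which held for 21.1% and 16.1% of all genes tested. Both stood above both 24 month libraries in 3 of 7 (H2-Eb1, H2-DMa and Ciita), as in 13.3% of all genes. From 3 to 30 months the median difference over the 7 was 1.01 on the log2 scale, against 0.01 over all genes. None of the 7 passed the test of age alone at any age, with 0.148% of all genes called for 30 against 3 months. Once the set was added to the model, 5 of them (Cd74, H2-Aa, H2-Ab1, H2-Eb1 and H2-DMa) passed for 30 against 3 months, with 2.13% of all genes called. In bulk muscle, more cells of a type and more RNA per cell cannot be told apart.

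**Figure D1:**
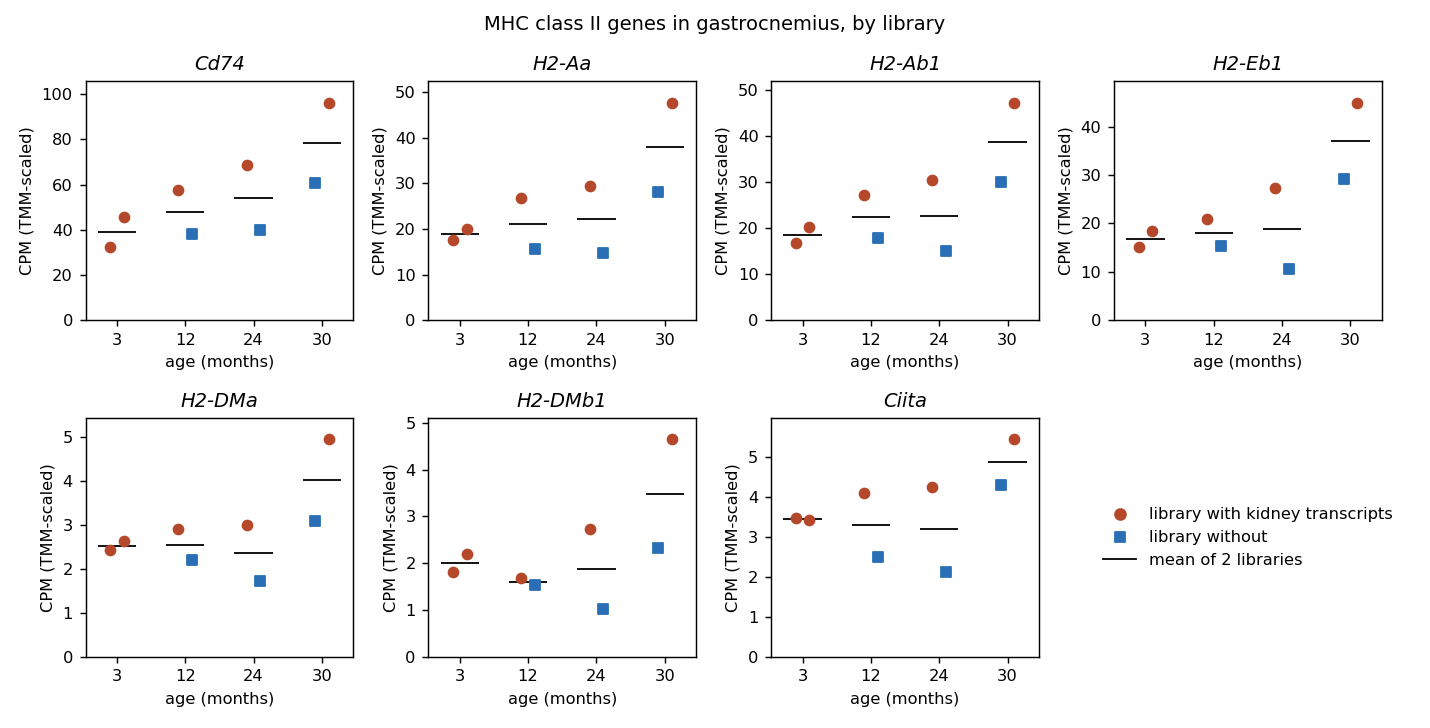
Level of each MHC class II gene in each library (CPM, TMM-scaled, vertical axis from 0) by age in months; circles are libraries with kidney transcripts, squares libraries without, and bars the mean of 2 libraries. In all 7 panels both 30 month points lie above both 3 month points, and replicate 2 of 30 months is the highest.

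Cd74 was the most abundant member per length, at a mean of 39.0 CPM per kilobase of exon over the 8 libraries. Listed by age, replicate 1 first, it stood at 32.5 and 45.5 CPM (3 months), 57.8 and 38.3 (12 months), 68.5 and 39.9 (24 months) and 60.8 and 96.2 (30 months). The libraries of 30 months were above those of 3 and 12 months, and overlapped those of 24 months. The mean went from 39.0 ± 9.23 CPM at 3 months (SD, n = 2) to 78.5 ± 25.1 CPM at 30 months (SD, n = 2). The log2 difference was 1.01 (SE 0.34), with an adjusted p of 0.428 by edgeR's quasi-likelihood test with Benjamini-Hochberg adjustment, used for all tests below.

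The chain genes followed Cd74 closely. H2-Aa, the alpha chain of I-A, was at 17.5 and 20.1 CPM (3 months), 26.7 and 15.5 (12 months), 29.4 and 14.8 (24 months) and 28.1 and 47.7 (30 months). Its libraries of 12 and 24 months lay on both sides of the 3 month ones. H2-Ab1, the beta chain that pairs with it, was at 16.8 and 20.3 CPM (3 months), 27.1 and 17.8 (12 months), 30.3 and 15.1 (24 months) and 30.1 and 47.2 (30 months). The ratio of H2-Aa to H2-Ab1, partners in 1 molecule, stayed between 0.870 and 1.05 over the 8 libraries, while the genes themselves varied by 3.23-fold and 3.13-fold. H2-Eb1 encodes the beta chain of I-E, whose alpha partner is not made in mice of the b haplotype such as C57BL/6. It was at 15.1 and 18.4 CPM (3 months), 20.9 and 15.4 (12 months), 27.3 and 10.5 (24 months) and 29.2 and 45.0 (30 months). H2-Eb1 was thus transcribed at a level like that of the I-A chains, at 19.2 CPM per kilobase against 15.6 for H2-Ab1 and 13.3 for H2-Aa, and its 30 month libraries were above all 6 others.

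In log2 terms the 30 against 3 month difference was 1.01 (SE 0.39) for H2-Aa, 1.06 (SE 0.36) for H2-Ab1 and 1.14 (SE 0.41) for H2-Eb1. Their adjusted p values in the edgeR test were 0.528, 0.444 and 0.493. Means went from 18.8 ± 1.81 to 37.9 ± 13.9 CPM for H2-Aa, from 18.5 ± 2.47 to 38.6 ± 12.1 CPM for H2-Ab1 and from 16.8 ± 2.32 to 37.1 ± 11.1 CPM for H2-Eb1 (SD, n = 2 each).

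The H2-DM genes and Ciita were at a lower level. H2-DMa was at 2.42 and 2.63 CPM (3 months), 2.90 and 2.20 (12 months), 2.99 and 1.73 (24 months) and 3.10 and 4.94 (30 months). H2-DMb1 was at 1.81 and 2.21 CPM (3 months), 1.68 and 1.54 (12 months), 2.72 and 1.01 (24 months) and 2.33 and 4.64 (30 months). In both, replicate 1 of 30 months stood only a little above the 3 month libraries, and replicate 2 well above. H2-DMb1 varied the most of the 7 over the libraries, by 4.58-fold. Ciita was at 3.46 and 3.41 CPM (3 months), 4.09 and 2.50 (12 months), 4.25 and 2.12 (24 months) and 4.28 and 5.43 (30 months). Per kilobase it was the lowest member, at 0.703 CPM, against 1.75 for H2-DMa and 1.51 for H2-DMb1. The log2 differences between 30 and 3 months were 0.67 (SE 0.32) for H2-DMa, 0.80 (SE 0.45) for H2-DMb1 and 0.50 (SE 0.34) for Ciita, with adjusted p of 0.618, 0.699 and 0.764 in the edgeR test.

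By level per length, the order was Cd74, H2-Eb1, H2-Ab1, H2-Aa, H2-DMa, H2-DMb1 and Ciita. Neighbours in this order overlapped in their ranges over the libraries except H2-Aa and H2-DMa, which lay apart. Within each library Cd74 was above the 3 chain genes, and Ciita was below the H2-DM genes. Each member was highest in replicate 2 of 30 months, as were 16.5% of all genes, and each except Cd74 was lowest in replicate 2 of 24 months, as were 20.2% of all genes. Those are also the libraries with the lowest and the highest summed muscle gene level. The part of that level in the class II result was not tested.

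For 30 against 3 months, edgeR called (adjusted p below 0.05) 0 of 7 members, and 29 of 19571 genes (0.148%). Unadjusted p was below 0.05 for 4 of the 7 (Cd74, H2-Aa, H2-Ab1, H2-Eb1) against 8.52% of all genes, and DESeq2 also called 0 of 7, where it called 1.09% of all genes. The other contrasts with 30 months had medians of 0.78 over the members against 12 months and 0.77 against 24 months, with 7 of 7 positive in each. There too 0 of 7 were called, with 2 and 2 members at an unadjusted p below 0.05 in edgeR, against 5.21% and 3.10% of all genes. All genes gave 1 call (0.00511%) and 0 calls (0%). The members' medians were smaller before 30 months, at 0.11 for 12 against 3 months, 0.17 for 24 against 3 months and 0.06 for 24 against 12 months, with no member called or at an unadjusted p below 0.05, against 0.0409%, 0.102% and 0% of all genes called. The slope on age over all 8 libraries had a median of 0.032 log2 units a month over the members, with 0 of 7 called, against 0.133% of all genes. In edgeR 4 of the 7 had an unadjusted p below 0.05 for the slope, against 9.83% of all genes. DESeq2 called 0 members in all of these, against 0.353%, 0.68% and 0.0204% of all genes for the 3 contrasts of the younger ages, 0.317% and 0% for 30 against 12 and 24 months and 1.52% for the slope.

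The direction before 30 months depended on the fit and on the libraries kept. Over 147 member values from 7 genes and 21 other fits, 32 turned sign for 24 against 3 months, 22 for 12 against 3 months and 33 for 24 against 12 months. None did for any contrast with 30 months. For 3 and 12 months this largely restates that both 30 month libraries lay above theirs in all 7 genes. Without replicate 1 of 24 months the median for 24 against 3 months was -0.54, and without replicate 2 it was 0.64.

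Within an age, the library with kidney transcripts had the higher class II level in 7 of 7 genes at 12, 24 and 30 months. The share of all genes in that order was not computed. The summed macrophage and monocyte markers described below had the same order, at 270 against 177, 252 against 161 and 452 against 250 CPM. So did the leukocyte sum, at 43.8 against 28.2, 47.6 against 28.2 and 73.1 against 53.5 CPM. Over the 7 class II genes, the median difference between the 2 libraries of an age was 0.59 on the log2 scale at 12 months, 0.99 at 24 months and 0.66 at 30 months. The sum of 8 muscle genes was lower in the library with kidney transcripts at each of these ages. It was 119562 against 143256 CPM (12 months), 117205 against 177262 (24 months) and 84038 against 146625 (30 months). At 3 months, where both libraries held kidney transcripts, the muscle sum was 101706 and 149729 CPM. The parts of the kidney transcripts and of the muscle level in the class II difference were not tested. Among libraries with kidney transcripts, the 30 month library exceeded the mean of the 3 month ones by a median of 1.32 (0.66 for Ciita to 1.43 for H2-Eb1). The 30 month library exceeded the 12 month one by a median of 0.80 among libraries with kidney transcripts and 0.75 among those without, positive in 7 of 7 in both. Of all genes, 28.9% were positive in both. Against 24 months the medians were 0.70 and 0.99, again 7 of 7 in both sets, as for 25.7% of all genes. Between 12 and 24 months the sets went apart, with medians of 0.16 with kidney transcripts and -0.24 without. The 3 month libraries were both of the set with kidney transcripts, so no within-set value exists for them in the other.

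With the library set as a term, 7 of 7 members were positive for 30 against 3 months and 5 of 7 were called higher. In the same contrast 416 of 19571 genes (2.13%) were called, 290 of them higher (1.48%). H2-Aa rose by 1.38 on the log2 scale (SE 0.14, adjusted p = 0.000743), H2-Ab1 by 1.40 (SE 0.16, adjusted p = 0.00145) and Cd74 by 1.31 (SE 0.17, adjusted p = 0.00351), all in edgeR. H2-Eb1 had the largest value among the members, 1.52 (SE 0.22, adjusted p = 0.0108), and H2-DMa rose by 0.94 (SE 0.21, adjusted p = 0.0425). H2-DMb1, at 1.14 (SE 0.30, adjusted p = 0.0780), and Ciita, at 0.83 (SE 0.21, adjusted p = 0.0744), did not pass. As all 3 month libraries share a set, this fit takes the set difference from the later ages and assumes that it holds at 3 months. At those later ages the libraries with kidney transcripts also had the lower muscle sum, and the part of the muscle level in this fit was not tested.

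Leaving out each library in turn in that fit kept Cd74, H2-Aa and H2-Ab1 past the threshold in 8 of 8 fits. H2-Eb1 kept its call in 7 of 8, with an adjusted p of 0.0683 without replicate 1 of 3 months. H2-DMa kept it in 4 of 8. The 4 fits in which it lost its call each lacked a 3 month or a 30 month library, and its adjusted p reached 0.480 without replicate 2 of 30 months. Ciita was called in none and H2-DMb1 in 2, those without a library of 12 months. Without replicate 2 of 30 months, the library that was highest for every member, 4 of the 7 were still called, and 112 genes in all. This fit of the remaining 7 libraries takes the single library left at an age to vary like the others.

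Against 12 months, the fit with the set called H2-Aa alone (0.85, SE 0.13, adjusted p = 0.0279), with 0.281% of all genes called and 0.235% called higher. Removing any 1 of the 4 libraries compared ended that call. Against 24 months 0 of 7 were called, although 7 of 7 had an unadjusted p below 0.05 in edgeR, as had 7.55% of all genes, none of which was called (0%). Before 30 months 0 of 7 were called in this fit, where 0.148%, 0.363% and 0% of all genes were called for 12 against 3, 24 against 3 and 24 against 12 months. The medians over the members were 0.50, 0.45 and -0.03, with 7, 7 and 3 of 7 positive. An unadjusted p below 0.05 was reached by 3, 3 and 0 members in edgeR, and by 7.60%, 9.07% and 6.73% of all genes. The slope with the set was called for Cd74 (0.042 log2 units a month, adjusted p = 0.0101), H2-Aa (0.043, adjusted p = 0.0190) and H2-Ab1 (0.042, adjusted p = 0.0357), with 1.51% of all genes called and 0.925% called with a rising slope. Leaving out 1 library at a time in that fit gave slopes of 0.035 to 0.046 for Cd74, 0.036 to 0.047 for H2-Aa and 0.035 to 0.048 for H2-Ab1. Each of these genes lost its call in at least 1 such fit, and none kept it without replicate 2 of 30 months. Without the 3 month libraries altogether 0 of 7 had a called slope, without or with the set, where all genes gave 0 and 10 calls.

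**Figure D2:**
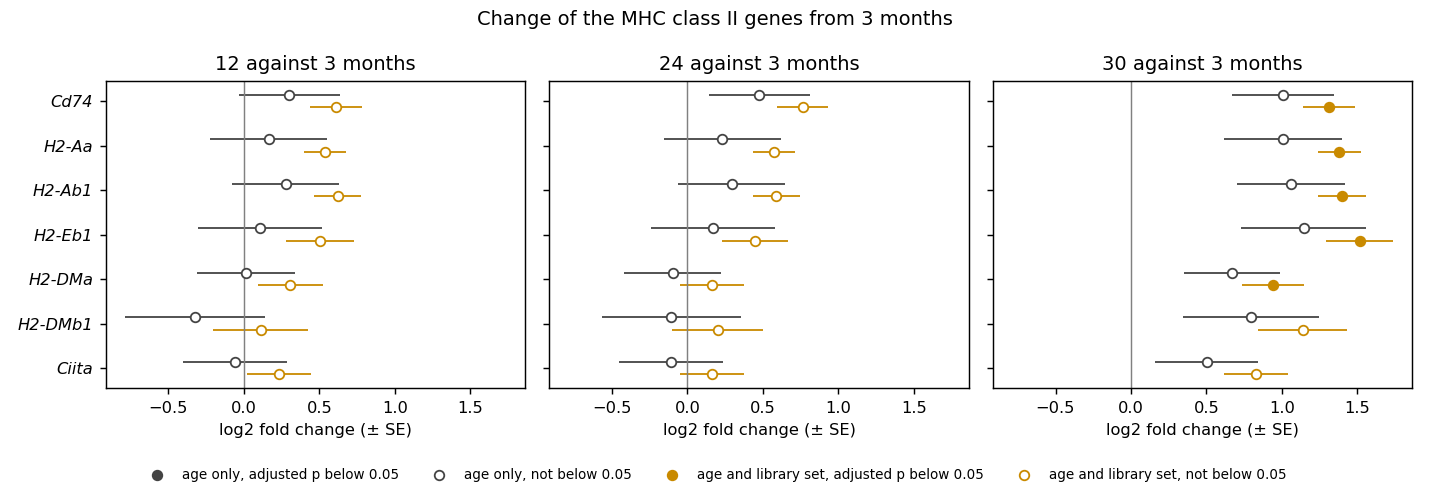
Log2 fold change with its standard error (horizontal axis) of the 7 class II genes at 12, 24 and 30 months against 3 months, in the fit of age alone (dark) and with the library set as a term (orange); filled points have an adjusted p below 0.05. The values at 30 months lie right of 0 for each gene, and 5 are filled in the fit with the set.

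The ratios of the members to H2-Ab1 varied over the libraries. Relative to H2-Ab1, Ciita was at 0.206 and 0.168 in the 3 month libraries and 0.143 and 0.115 at 30 months, and it lay between 0.140 and 0.151 at 12 and 24 months. Both libraries of 3 months were thus above the 6 others, but they lay further from each other than 0.168 lay from 0.151. H2-DMa over H2-Ab1 was 0.144 and 0.130 (3 months), 0.107 and 0.123 (12 months), 0.0985 and 0.115 (24 months) and 0.103 and 0.105 (30 months), again with 3 months above the rest. Cd74 over H2-Ab1 ranged from 1.93 to 2.65 with no order by age. With 2 libraries an age, these ratios were given no test.

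Class II levels were then set beside marker lists of the cells that could carry them. The 4 most abundant members (Cd74, H2-Aa, H2-Ab1, H2-Eb1) had their lowest sum, 80.2 CPM, in replicate 2 of 24 months and their highest, 236 CPM, in replicate 2 of 30 months. The 20 macrophage and monocyte markers had the same extremes, 161 and 452 CPM, as did the dendritic cell and MHC class I sums, and 19 of the 20 were highest in replicate 2 of 30 months. All 8 pan-leukocyte markers were highest there too, and their sum ran from 28.2 to 73.1 CPM. The 15 dendritic cell markers summed to 28.1 to 44.8 CPM, and 8 endothelial markers to 230 to 308 CPM. Both of these sums were also highest in replicate 2 of 30 months. The B cell sum was mostly Ighm and ran from 46.6 CPM (replicate 1 of 3 months) to 188 CPM (replicate 2 of 24 months, where class II was lowest), and the B cell gene Ms4a1 was at 0.307 CPM or less in every library. Of 11 B cell markers tested, 5 were lowest in that same library. T and NK cell markers summed to 1.35 to 3.10 CPM. None of the listed markers was at 0 in all 8 libraries. The part of any cell type in the class II result was not tested.

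**Figure D3:**
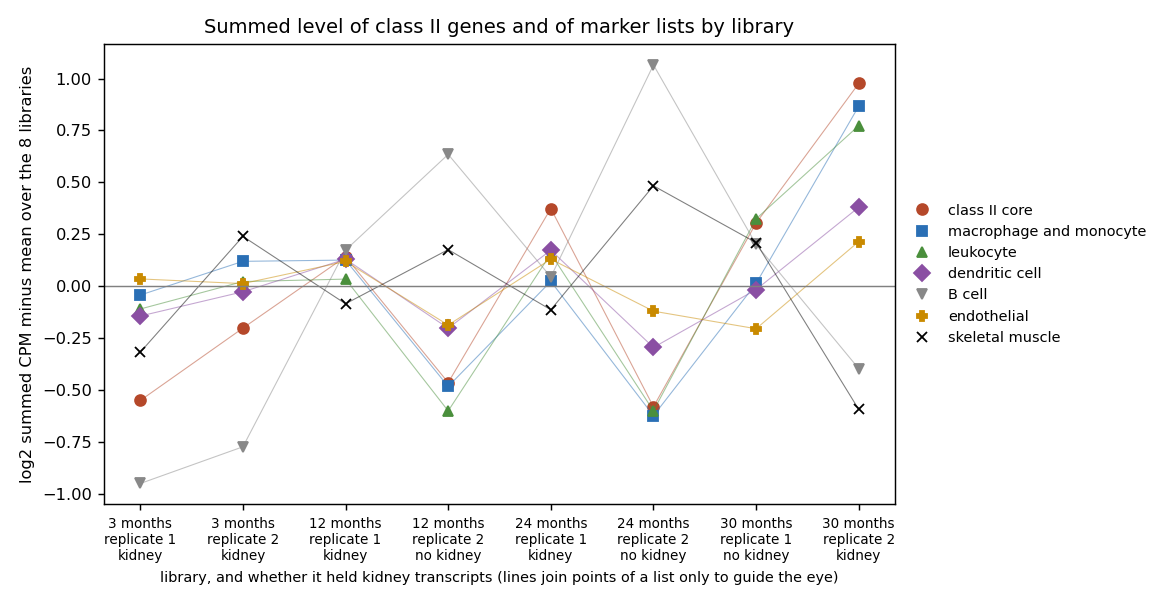
Log2 of the summed CPM of each marker list minus its mean over the 8 libraries (vertical axis), for each library along the horizontal axis with its age, replicate and kidney transcript status; lines only join the points of a list. Class II, macrophage, leukocyte, dendritic cell and endothelial sums share their highest library, replicate 2 of 30 months, where the muscle sum is lowest.

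Divided by the macrophage and monocyte sum, the 4 class II genes stood at 0.341 and 0.388 (3 months), 0.490 and 0.491 (12 months), 0.618 and 0.499 (24 months) and 0.593 and 0.523 (30 months). The 3 month libraries were the lowest, and the later ages overlapped. Over the leukocyte sum the ratio was 2.07 and 2.40 at 3 months and 2.77 to 3.26 in the 6 later libraries. The dendritic cell sum gave 2.63 and 3.09 at 3 months and 4.35 and 5.27 at 30 months, with both 30 month libraries above the 6 others. In these ratios the pairs of libraries of 1 age differed by less than the class II levels themselves at 12 months, where 0.490 and 0.491 stand against 132 and 87.0 CPM.

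**Figure D4:**
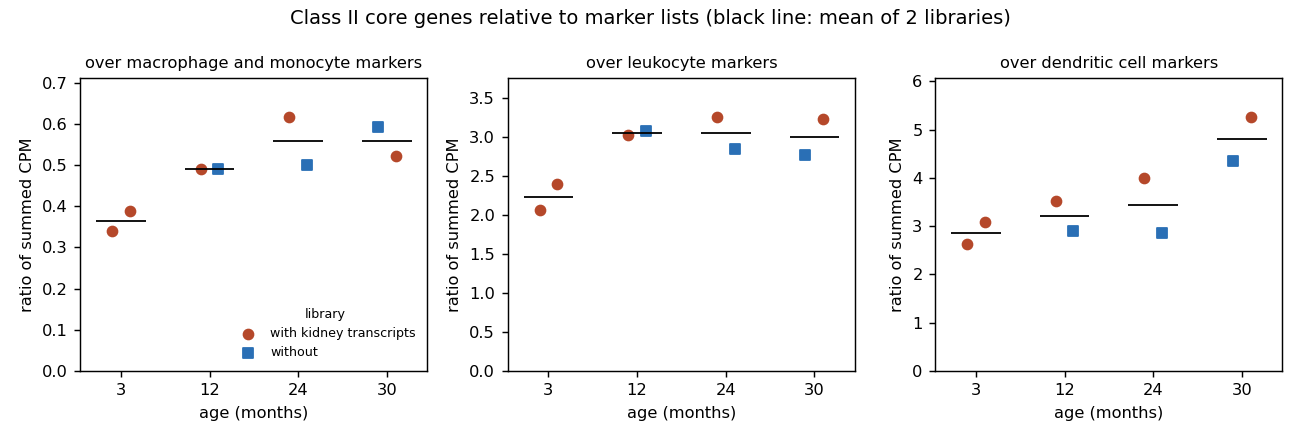
Summed CPM of Cd74, H2-Aa, H2-Ab1 and H2-Eb1 divided by the summed CPM of macrophage and monocyte, leukocyte or dendritic cell markers (vertical axes from 0) by age in months; circles are libraries with kidney transcripts, squares those without, bars the mean of 2 libraries. The 3 month points are the lowest in the macrophage and leukocyte panels.

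Among macrophage and monocyte markers, 0 of 20 were called for 30 against 3 months in the fit of age alone, where 0.148% of all genes were called. Their median log2 difference was 0.50. In edgeR 3 had an unadjusted p below 0.05, against 8.52% of all genes. With the set 20 of 20 were positive and 9 were called higher, with a median of 0.81 against 1.31 for the class II genes. In that edgeR fit 2.13% of all genes were called, 1.48% higher, and 14.7% had an unadjusted p below 0.05. The same shares of all genes apply to each list below. Named after their values were seen, Mpeg1, the pore-forming perforin-2 of macrophages, rose by 1.90 (adjusted p = 0.000223) in that edgeR fit and Lyz2, lysozyme, by 1.12 (adjusted p = 0.00731). The pan-leukocyte list had 8 of 8 positive and 4 of 8 called higher in that edgeR fit, among them Ptprc, which encodes CD45, by 0.78 (adjusted p = 0.0221). Of 12 dendritic cell markers tested, 11 were positive with the set, with a median of 0.54 and 6 at an unadjusted p below 0.05 in edgeR. Of the 12, 1 was called higher in that edgeR fit, Itgax, which encodes CD11c, by 2.10 (adjusted p = 0.00447). Its levels were 0.519 and 0.519 CPM (3 months) and 1.08 and 2.26 CPM (30 months). Zbtb46, Flt3 and Clec9a, listed here as dendritic cell markers, were not called. Zbtb46, with the highest mean level of the list, stood at 9.29 to 11.6 CPM in all 8 libraries, in dendritic cell sums of 28.1 to 44.8 CPM. It thus weighs on the ratio of class II to that sum, and whether it came from dendritic cells was not tested. B cell markers had 0 of 11 called for 30 against 3 months in both edgeR fits, with 2 at an unadjusted p below 0.05 in each, medians of 0.79 for age alone and 1.02 with the set, and 11 of 11 positive in both. The 6 MHC class I genes had 0 of 6, with 2 and 5 at an unadjusted p below 0.05 and medians of 0.35 for age alone and 0.47 with the set. The medians of the skeletal muscle genes were -0.10 for age alone and -0.33 with the set, where 1 of 8 was positive. Of the remaining lists, the fit with the set called 1 of 8 neutrophil and mast cell genes, 0 of 7 costimulation genes (2 at an unadjusted p below 0.05), 0 of 8 endothelial genes (1), 0 of 5 T and NK cell genes (0) and 0 of 8 skeletal muscle genes (1), and the edgeR fit of age alone called none of them.

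Among genes that act with class II, calls for 30 against 3 months came only in the fit with the set, where 2.13% of all genes were called. Of 10 tested genes for class II paralogs and peptide loading, 0 were called in the fit of age alone for 30 against 3 months. In edgeR 2 had an unadjusted p below 0.05, against 8.52% of all genes. With the set 8 of 10 were positive and 1 was called higher. That gene was Ctss, cathepsin S, the protease that trims the invariant chain, which rose by 1.50 (SE 0.19, adjusted p = 0.00321). Its levels were 6.74 and 7.32 CPM (3 months) and 8.41 and 22.6 CPM (30 months), so replicate 2 of 30 months stood far above the rest. The proteases Ctsd, Ctsb and Ctsl, the most abundant of the list, varied by 1.29 to 1.47-fold over the 8 libraries and were not called. H2-Oa and H2-Ob, which encode an inhibitor of H2-DM, were at 0.517 CPM or less.

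The 15 tested genes of class II transcription had 0 called in the fit of age alone and a median of -0.08 for 30 against 3 months. In edgeR 4 had an unadjusted p below 0.05, against 8.52% of all genes. With the set 6 of 15 were positive, 1 was called higher and 1 was called lower. Spi1, the myeloid factor PU.1, rose by 1.11 (SE 0.23, adjusted p = 0.0306), from 1.79 and 1.87 CPM (3 months) to 3.03 and 3.89 CPM (30 months). Jak2, a kinase of the interferon-gamma receptor, fell by 1.30 (SE 0.15, adjusted p = 0.00145), from 84.0 and 92.6 CPM to 58.8 and 36.4 CPM. Rfx5, part of the complex on the X box, was at 5.23 and 5.15 CPM (3 months) and 8.41 and 6.82 CPM (30 months), and was not called. Ifng, the cytokine known for inducing Ciita, had 0 counts in 7 of the 8 libraries and 0.0195 CPM in the other.

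The genes whose log2 CPM over the 8 libraries was most like the mean of the standardized values of Cd74, H2-Aa, H2-Ab1 and H2-Eb1 were sought among 11996 genes. The 10 with the highest Pearson correlation were Cfb (0.986), Fermt3 (0.983), Neurl3, Igf2, Fignl2, Cacna1a, Tuba1c, Rpl3, Lbh and C3ar1 (0.967). Cfb encodes complement factor B, C3ar1 a receptor for a complement fragment and Fermt3 the integrin activator kindlin-3 of blood cells. Each of the 10 was highest in replicate 2 of 30 months. The mean that they were chosen to match was also highest there, at 1.75, so this shared peak follows from the choice. Only 4 of them were among the top 10 by Spearman correlation, and 25 genes reached a Pearson correlation of 0.95. The libraries behind these values differ in depth, age and kidney transcripts, and the part of each in the correlations was not tested. The correlations are given as a description.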

How the data were processed

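RNA-seq counts of 8 gastrocnemius libraries were used. What the authors deposited is 1 raw count per Ensembl gene and library, per the file headers, and every entry had a gene identifier. The submitters' processing notes list, with no role for each, STAR 2.5.2b, Subread 1.5.2, featureCounts, Trimmomatic 0.36 and the builds mm10 and GRCm38. Annotation release, strand setting and handling of multiply matching reads: not given in the sources used here. GENCODE M21 (GRCm38) gave a symbol to 49056 of 49315 identifiers, and promoter sequences are RefSeq's (GRCm38.p6).

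The analysis used edgeR 4.0.16 in R 4.3.3: filterByExpr on age (19571 genes), TMM, and a robust quasi-likelihood model of the 4 ages over 8 libraries with 4 residual degrees of freedom, plus a separate model with a slope on age. A gene was called where its p, adjusted by Benjamini-Hochberg over all genes, was below 0.05. Each standard error was taken as the log2 fold change over the square root of F. CPM are TMM-scaled, except the kidney sum that defines the library set, which is per library total and split at 1 CPM. Alternatives were RLE size factors, no low count filter, DESeq2 1.42.0, a replicate block, the library set as a term (3 residual degrees of freedom) and each library left out. Each library left out together with the set, and slopes without 3 months, were added after seeing the data. The procedure was tested on simulated data.

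The members and gene lists were chosen with earlier results of these data known. All members are named. From other lists the rule named the 3 genes at the highest level and genes called in the fit of age alone, of which there were none, so the other genes were named after their values were seen. The genes most alike in pattern have an average log2 CPM of at least 0, clones and predicted genes left out. Splicing was not analysed here. Some listed marker genes are not reported here by name.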

Additional observations from a re-analysis of the deposited data

How the results depend on the processing

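No alternative turned the direction of a class II gene in a contrast with 30 months or in the slope. For 3 and 12 months this largely restates that both 30 month libraries lay above theirs in all 7 genes. The number of members called stayed at 0 of 7 in all 7 comparisons with RLE size factors, no low count filter, DESeq2, the replicate block and each library left out. In the fit with the set it became 5 for 30 against 3 months, 1 for 30 against 12 months and 3 for the slope; leaving out each library in that fit gave 3 to 6, 0 to 3 and 0 to 5, and 0 to 3 for 30 against 24 months.

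Over all genes, the calls for 12, 24 and 30 against 3 months were 8, 20 and 29. They became 134, 233 and 378 with no low count filter, 69, 133 and 213 with DESeq2, 5, 9 and 13 with the replicate block, and 29, 71 and 416 with the set. For 24 against 12, 30 against 12 and 30 against 24 months, the calls were 0, 1 and 0 (600, 1019 and 606 genes at an unadjusted p below 0.05 in edgeR); they became 17, 139 and 13 with no filter, 4, 62 and 0 with DESeq2 and 0, 55 and 0 with the set, and 30 against 12 months had 0 with the replicate block. The slope had 26 calls, 107 with no filter, 298 with DESeq2, 295 with the set, 0 without the 3 month libraries and 10 without them and with the set. Leaving out a library gave 4 to 14, 5 to 33, 10 to 52, 0 to 7, 0 to 10 and 0 to 8 calls for the 6 contrasts in that order and 5 to 74 for the slope; with the set, 10 to 75, 34 to 138, 112 to 584, 0 to 113, 8 to 171, 0 to 100 and 47 to 512. The cause of these shifts was not tested.

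Differences between replicates 1 and 2 had correlations of -0.36 to 0.26 over 6 pairs of ages, with both signs, so the replicate block is no pairing. The correlation was 0.26 for 12 with 24 months, where replicate 1 held the kidney transcripts. With 30 months, where replicate 2 held them, it was -0.36 for 12 and -0.30 for 24 months. The members were at 1.01 CPM or more in each library, and 2 libraries an age limit the precision.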
